A study of Mus musculus with 19 samples.

Results

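Immature CD8-committed thymocytes were defined here by RNA alone, as cells with at least 1 UMI (unique molecular identifier, 1 counted molecule) of Runx3, at least 1 of Cd8b1 and at least 1 of Ccr7 or Id2. The same cells had 0 UMIs of 7 genes that mark other fates or stages: Cd4, S1pr1, Klf2, Nkg7, Zbtb16, Rag1 and Mki67. The rule found 808 cells among 79569 cells that had at most 15% mitochondrial UMIs and at least 200 detected genes. Of the 808, 457 entered through Ccr7 alone, 177 through Id2 alone and 174 with both.

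Thymocytes are T cell precursors that at first carry neither coreceptor and then carry both, CD4 and CD8, a stage called double positive (DP). A DP cell whose T cell receptor (TCR) recognises MHC class I becomes a CD8 T cell, and one that recognises MHC class II becomes a CD4 T cell. Runx3 silences Cd4 and drives the CD8 program, whereas Zbtb7b (ThPOK) holds cells in the CD4 lineage. Ccr7 guides newly selected cells to the medulla, and S1pr1 and Klf2 mark cells that are ready to leave the thymus. The rule was thus aimed at cells early on the CD8 branch, and what it held is given below.

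The study read RNA and 111 surface proteins of single thymocytes by CITE-seq, in which antibodies carry DNA tags that are sequenced beside the RNA. It compared wild-type (WT) mice with mice whose T cells are restricted to 1 lineage, all females aged 4 to 8 weeks and without treatment. The restriction came from a TCR transgene or from loss of an MHC gene. AND and OT-II (class II receptors) and MHCI-/- (no B2m) were the CD4-fated genotypes, and F5 and OT-I (class I receptors) and MHCII-/- (no H2-Ab1) the CD8-fated ones. The MHC-deficient mice rearrange their own TCR genes. AND and F5 mice also lacked Rag1, so that every T cell had the 1 transgenic receptor. There were 2 mice of each restricted genotype and 5 WT mice, of which replicates 1, 2 and 3 (WT sorted) and all MHC-deficient mice had been sorted for CD5+TCRB+ cells, while WT replicates 4 and 5 (WT unsorted) and the transgenic mice had not. The 17 mice were run in 3 experiments. ZRS06 held 1 WT, 1 AND and 1 F5 mouse, ZRS07 held 2 WT mice, both MHCI-/- and both MHCII-/- mice and the second AND and F5 mice, and ZRS08 held the WT unsorted, OT-I and OT-II mice.

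The cells that met the rule had a median of 4681 RNA UMIs (931 to 23503), against 4010 over all cells, and per mouse the median ran from 2343 to 6242. A doublet caller marked 27 of them (3.34%, against 4.00% of all cells), and they were kept. Barcodes found in more than 1 lane numbered 874, and 19 cells that met the rule carried one, none of them shared by 2 such cells. In 17 cells, from 11 mice, at least 5 UMIs came from a 6-gene myeloid and dendritic list, and these cells held 89.3% of that list's UMIs. Among the defining markers of other cells, Foxp3 (regulatory T), Klrb1c (NK), Alas2 (erythroid) and Krt5 and Psmb11 (epithelial) were at 0 in all 11 WT and CD8-fated mice. The summed level of 5 CD4 lineage markers ran from 106 to 252 UMIs per 1000000 (CPM), against 418 to 1166 CPM in immature CD4 cells. The 6 preselection DP markers summed to 81.0 to 436 CPM, against 533 to 3603 CPM in signaled DP cells. Lists of 6 genes of other cells ran, per mouse, from 15.2 to 471 CPM (γδ T), 12.7 to 470 (NK or innate), 108 to 450 (B), 38.5 to 448 (regulatory T), 257 to 764 (agonist-selected), 77.5 to 6783 (myeloid), 0 to 33.7 (erythroid) and 0 to 27.3 CPM (epithelial). Cycling genes ran from 321 to 641 CPM and interferon genes from 54.8 to 1099 CPM. The AND replicate 1 library stood apart, in that 2 of its 5 cells that met the rule had at least 3 UMIs of Amd1, a level seen in all 113 such cells of F5 mice and in 3 of 690 in the other 14 mice. Of all its cells 4.94% had that level, and it shared 33 barcodes with the F5 replicate 1 lane of its experiment, as WT sorted replicate 1 of that experiment shared 34. With fewer than 10 cells it entered no test of genes or proteins, but its cells are among the pooled values given for CD4-fated mice.

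The 48 cells just inside the rule, with 1 UMI each of Runx3 and Cd8b1 and 1 in all of Ccr7 and Id2, had a median of 612 CD4 and 202 CD8a antibody UMIs per 10000, against 517 and 437 over all 808. A single UMI of Cd8b1 brought in 174 cells (21.5%), with a median of 159 CD8a and 614 CD4, a single UMI of Runx3 398 cells (49.3%), with 429 and 587, and 1 UMI in all of Ccr7 and Id2 393 cells (48.6%), with 471 and 455. Just outside, 1303 cells failed only for want of Runx3, 423 for want of Cd8b1 and 940 for want of Ccr7 and Id2. The 205 cells kept out by a single Cd4 UMI had a median CD4 protein level of 871 per 10000 and a CD8a level of 260. A single UMI of Klf2 kept out 201 cells, of Nkg7 187, of Rag1 43, of S1pr1 40, of Mki67 34 and of Zbtb16 none. Captured UMIs decide these cases, a gene at 0 UMIs in 1 cell may still be expressed there, and a single UMI may be background.

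Immature CD8-committed cells were rare in every mouse and more frequent in CD8-fated than in CD4-fated mice, while WT sorted mice overlapped with the CD8-fated mice. In WT sorted mice they made up 1.89%, 1.44% and 0.931% of cells, and in WT unsorted mice 0.327% and 0.238%. In MHCII-/- mice they reached 3.58% and 3.25%, in F5 mice 1.89% and 1.39%, and in OT-I mice 1.17% and 1.82%. The CD4-fated mice held fewer, at 0.204% and 0.525% in MHCI-/-, 0.326% and 0.409% in OT-II and 0.187% and 0.347% in AND mice. The CD8-fated and CD4-fated mice did not overlap.

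The mean share was 2.18% ± 0.995 (SD, n = 6) in CD8-fated mice and 0.333% ± 0.127 (SD, n = 6) in CD4-fated mice, a difference of 1.85 percentage points. An exact permutation test over mice, two-sided, gave p = 0.00216, the smallest that 6 against 6 mice allow. Without AND replicate 1 the difference was 1.82 percentage points (exact permutation p = 0.00433). The order held within each experiment, since in ZRS06 the F5 mouse stood at 1.89% against 0.187% in the AND mouse, and in ZRS08 the 2 OT-I mice stood at 1.17% and 1.82% against 0.326% and 0.409% in the OT-II mice. In ZRS07 the lowest CD8-fated mouse was at 1.39% and the highest CD4-fated mouse at 0.525%. Cells with at least 3000 UMIs were also thinned to 3000 UMIs, and all shallower cells were left out. The means were then 1.99% in CD8-fated, 0.868% in WT and 0.210% in CD4-fated mice, against 0.964% ± 0.708 (SD, n = 5) for WT before thinning. This kept 2185 of 9646 cells in WT unsorted replicate 5. It kept 859 of 3178 in OT-II replicate 2, of which 1 met the rule. The exact binomial 95% interval of a single mouse covers counting error only and ran, for example, from 0.0607% to 0.436% in AND replicate 1, with 5 cells. WT sorted mice had a mean of 1.42% and WT unsorted mice of 0.283%, and the sort and the experiment cannot be told apart from each other in this gap. Over cells with 0 UMIs of Rag1 and Mki67 alone, the share was 2.54%, 1.70% and 1.22% in WT sorted and 1.57% and 1.64% in WT unsorted mice, so that the WT groups overlapped, and 1.49% and 2.36% in OT-I mice.

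**Figure D1:**
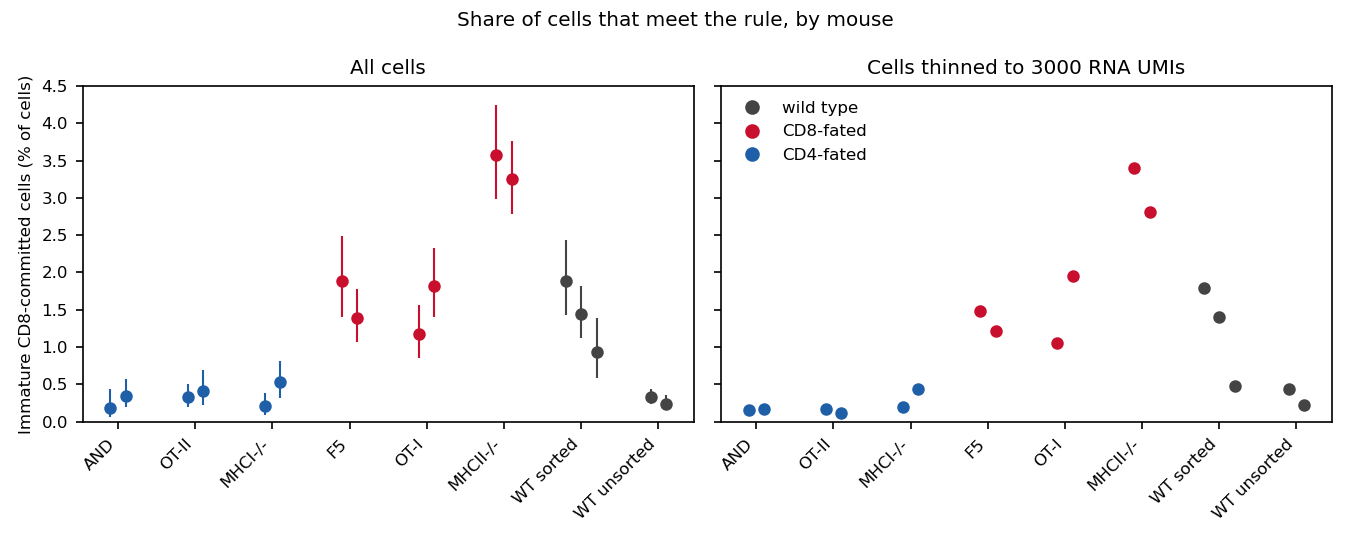
Share of cells that met the rule for immature CD8-committed thymocytes in each of the 17 mice, in percent of cells passing the RNA filters. Each point is 1 mouse, and all 6 CD8-fated mice (1.17% to 3.58%) lie above all 6 CD4-fated mice (0.187% to 0.525%).

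Antibody counts were not used by the rule, so they describe what these cells carried on the surface. The cells had 0 Cd4 UMIs by the rule, yet the median cell carried CD4 protein. Over the pooled cells of each group, the median cell had 369 CD4 and 381 CD8a antibody UMIs per 10000 in WT mice. It had 560 and 472 in CD8-fated mice, and 558 and 303 in CD4-fated mice. Per mouse, the median CD4 level was 680 and 873 in MHCII-/-, 514 and 386 in F5, and 449 and 185 in OT-I mice. It ran from 127 to 555 in WT mice, so that WT and CD8-fated mice overlapped. Mature CD8 cells of WT mice, gated on at least 1 UMI of Runx3 and of Cd8b1 and at least 1 of S1pr1 or Klf2 with 0 of Cd4, Zbtb16, Rag1 and Mki67, stood at 26.1 and 701. Signaled DP cells of WT mice, gated on Cd4 and Cd8b1 and at least 1 UMI of Egr1, Cd69 or Itm2a with 0 of Runx3, Ccr7, S1pr1, Klf2, Nkg7, Zbtb16 and Mki67, stood at 565 and 670.

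A part of the cells was low in CD8a protein, taken as at or below the 95th percentile of WT immature CD4 cells of the same experiment (164.7 to 210.6 per 10000). This held for 189 of the 808 cells (23.4%), against 9.68% of mature CD8 cells, 8.15% of signaled DP cells and 94.6% of the 296 WT immature CD4 cells that set the level. The order was reversed in CD4-fated mice, where 205 of 307 mature CD8 cells (66.8%) were CD8a-low, against 37.5% of the cells that met the rule. By genotype the share among cells that met the rule was 0% in both F5 mice, 14.4% and 14.7% in MHCII-/- mice, and 63.6% and 39.7% in OT-I mice. In WT mice it was 29.6% (22.4% to 36.6% per mouse) and in CD4-fated mice 37.5%, with 1 of 19 cells and 38.5% in OT-II, 40.0% and 53.3% in AND, and 66.7% and 42.1% in MHCI-/- mice. CD8a protein also varied by genotype in other gates. In signaled DP cells it was 881 and 826 per 10000 in F5 mice and 402 and 333 in OT-I mice (WT 519 to 686). In mature CD8 cells it was 798 and 710 in F5 mice and 517 and 488 in OT-I mice (WT 533 to 739). The part of these levels in the shares was not tested. The CD8a-low cells had a median of 755 CD4 antibody UMIs per 10000, against 446 in the rest.

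In MHCII-/- mice, which lack the ligands of class II-restricted receptors, the 43 CD8a-low cells had 460 CPM of Cd8a RNA against 1199 in the other 252. Their Il7r RNA stood at 232 CPM (exact Poisson 95% interval 172 to 307) against 95.7 (80.5 to 113), and their H2-K1 RNA at 289 (221 to 371) against 767 (723 to 813). In OT-I mice, which gave 53 of the 96 CD8a-low cells of CD8-fated mice, Il7r stood at 91.4 CPM (57.9 to 137) against 79.1 (47.6 to 124) and H2-K1 at 191 (141 to 253) against 246 (187 to 317), with intervals that overlapped for both genes. In CD4-fated mice H2-K1 went the other way, at 1381 CPM (1200 to 1582) against 469 (379 to 574). The values of CD4-fated mice were pooled over AND, OT-II and MHCI-/- cells. In OT-II mice only 1 of 19 and 5 of 13 cells were CD8a-low, so the genotype mix differed between the CD8a-low cells and the rest. The part of this mix in the values was not tested. Zbtb7b, the CD4 lineage factor, stood at 9.48 CPM (1.15 to 34.3, from 2 UMIs) against 0.679 (0.0172 to 3.78) in MHCII-/- mice and at 7.95 (0.962 to 28.7, from 2 UMIs) against 4.17 (0.105 to 23.2) in OT-I mice, with overlapping intervals. Cd40lg stood at 4.74 CPM (0.12 to 26.4) against 9.50 (5.19 to 15.9) in MHCII-/- mice, and at 11.9 (2.46 to 34.8) against 4.17 in OT-I, 31.1 (14.2 to 58.9) against 5.53 (1.51 to 14.2) in WT and 112 (65.5 to 180) against 39.9 (17.2 to 78.6) in CD4-fated mice. In WT mice Zbtb7b stood at 34.5 CPM (16.5 to 63.4) in 63 CD8a-low cells against 6.91 (2.24 to 16.1) in 150 others, and in CD4-fated mice at 85.9 (45.8 to 147) against 44.9 (20.5 to 85.2). The split was made on measured protein after its values were seen, the intervals cover counting error only, and no test was made.

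**Figure D2:**
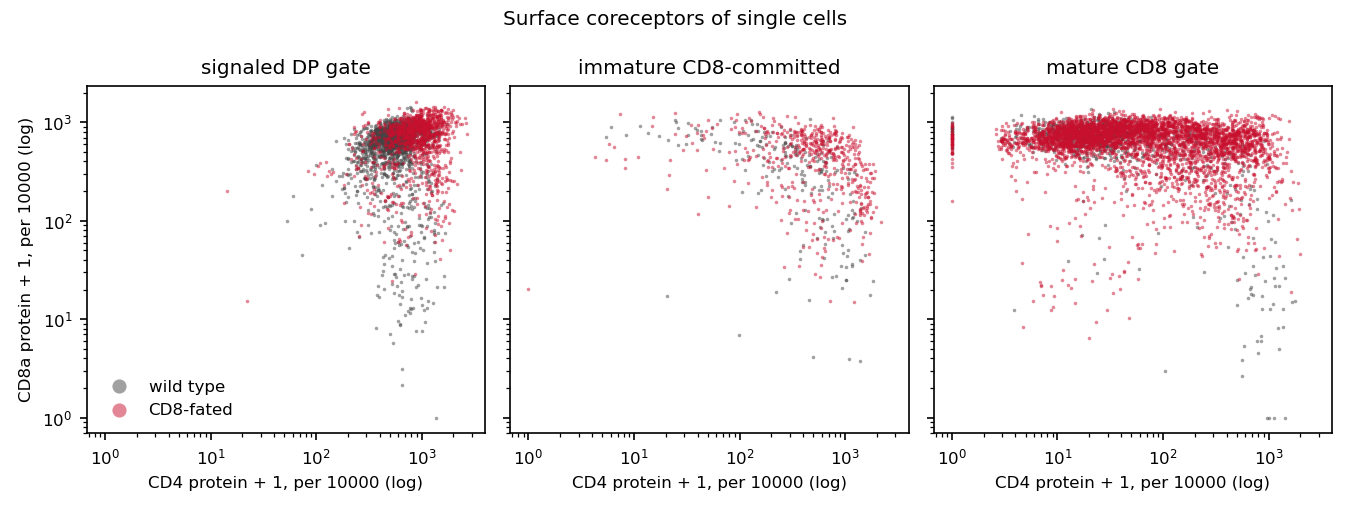
CD4 against CD8a antibody UMIs per 10000 (plus 1, log axes) of single cells that met the rule. Each point is 1 cell, and the cells spread from CD4-high to CD4-low at high CD8a, with a further group at high CD4 and low CD8a.

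The gate was next set against mature CD8 cells within the same mouse, in the 5 WT and 6 CD8-fated mice. This asked how cells that met the rule differ from those with S1pr1 or Klf2. Immature cells carried more CD4, CD69, CD24 and CD150 protein and less integrin β7, CD55 and CD103, and their CD8a and CD8b were lower too. Of 111 antibodies, 27 (24.3%) passed the test, an edgeR quasi-likelihood test on UMIs summed per mouse with the mouse as a block and a Benjamini-Hochberg adjusted p under 0.05. These p-values measure the spread between mice.

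CD4 protein ran from 177 to 902 antibody UMIs per 10000 in the immature cells (median of 11 mice 476) and from 53.3 to 302 in the mature cells (median 125). It was higher in 11 of 11 mice, by 1.95 ± 0.22 (SE) on the log2 scale (edgeR adjusted p = 1.89e-05), although the ranges overlapped. CD69, a lectin that holds newly selected cells in the thymus, ran from 14.9 to 97.4 (median 52.4) against 12.2 to 45.8 (median 28.6), higher in 11 of 11 mice by 0.91 ± 0.10. CD24, which falls as thymocytes mature, was higher in 11 of 11 mice by 1.1 ± 0.16, and CD150 (SLAM) by 0.97 ± 0.11. CD28, a costimulatory receptor, was higher by 0.85 ± 0.12.

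Integrin β7, which pairs with CD103 and brings T cells to epithelia, ran from 14.0 to 111 (median 38.6) in the immature cells and from 69.2 to 526.2 (median 236) in the mature cells. It fell in 11 of 11 mice, with a log2 difference of -2.77 ± 0.32 (edgeR adjusted p = 2.03e-05). CD55, a complement regulator, ran from 0.779 to 3.28 (median 1.77) against 4.64 to 10.7 (median 8.37) with no overlap, a log2 difference of -2.13 ± 0.12. CD103 itself differed by -1.58 ± 0.24 and CD122, a subunit of the IL-2 and IL-15 receptors, by -0.66 ± 0.09.

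CD8a had a mean of 435 per 10000 (206 to 689) in the immature and 656 (488 to 798) in the mature cells. It was lower in 11 of 11 mice by a log2 difference of -0.53 ± 0.11 (edgeR adjusted p = 0.00314), a call lost in WT and in CD8-fated mice alone, and Cd8a RNA differed by -0.06 ± 0.06 (edgeR adjusted p = 0.561). CD127, the IL-7 receptor chain, differed by 0.10 ± 0.11 (edgeR adjusted p = 0.483), the TCR β chain by 0.24 ± 0.10 (edgeR adjusted p = 0.0912) and CD5 by 0.25 ± 0.10 (edgeR adjusted p = 0.0851). None of these 4 measures of RNA or protein passed the test.

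In RNA, 1952 of 8887 genes passed (22.0%), of which 757 were higher (8.52%) and 1195 lower (13.4%) in the immature cells. Genes that define either gate were left out, but the gates were set by maturation genes, and the rule asked for 0 UMIs of the cytotoxic gene Nkg7, which the mature CD8 gate did not limit. RNA that moves with these genes, maturation and cytotoxic genes among it, thus differs in part by construction of the gates. Mature CD8 cells were also deeper, with a median of 6636.5 RNA UMIs over all mice, against 4681 in the 808 cells that met the rule. A mature cell of low depth can have 0 UMIs of S1pr1 and Klf2 and so meet the rule. The part of depth in the result was not tested. The largest falls by the naming rule were Igfbp4, Dapl1, Klrd1, Lcn4, Emc9, Ggt1, Amica1 and Tubb3, with log2 differences from -4.76 to -3.63. The largest rises were Tdrd5, Armcx6, Chrna9, Chdh, Spo11, Rora, Myl10 and Cd74, with log2 differences from 1.75 to 2.27. Cd74, the MHC class II invariant chain, rested on few cells. Its level ran from 7.21 to 4427 CPM between mice, its difference was 0.98 without the cells rich in myeloid UMIs, and its call was lost without F5 replicate 1 (0.74, edgeR adjusted p = 0.161).

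The CD8 lineage and cytotoxic genes were lower, with 11 of 17 tested genes lower, 1 higher and a median log2 difference of -1.57, against -0.00 over all genes. Dapl1 ran from 0 to 7.49 CPM (median 0) against 13.8 to 85.9 (median 49.2) with no overlap, a log2 difference of -4.68 ± 0.31 (edgeR adjusted p = 1.37e-15). Itgae, which encodes CD103, ran from 3.61 to 95.5 CPM (median 11.8) against 13.6 to 160 (median 128), lower in 11 of 11 mice by -2.70 ± 0.18. Ctsw, the cathepsin of cytotoxic lymphocytes, ran from 65.8 to 218 CPM against 127 to 418 and was lower in 11 of 11 mice by -1.30 ± 0.08. Eomes, a regulator of CD8 memory, had 0 UMIs in 728 immature cells and 352 UMIs in 5043 mature cells (9.35 CPM), which puts it at least 11.7-fold lower when 3 counts are taken as the floor over the group. Cd7, Cst7, Il2rb, Xcl1, Gzma, Cd160 and Klrd1 were the other genes of the list that fell.

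The 1 gene of that list that rose was Runx1, a Runx factor that DP cells also express. It ran from 43.8 to 136 CPM (median 81.8) in the immature and from 24.1 to 54.2 CPM (median 35.5) in the mature cells. It was higher in 11 of 11 mice by 1.12 ± 0.14 (edgeR adjusted p = 2.19e-08). Among 16 genes of Cd4 silencing and chromatin, 9 were higher and 3 lower (median log2 difference 0.33). Satb1, a genome organiser that acts on the Cd4, Cd8, Zbtb7b and Runx3 loci, ran from 1296 to 2715 CPM (median 2252) against 527 to 1191 (median 710) with no overlap, a log2 difference of 1.30 ± 0.08 (edgeR adjusted p = 1.60e-16). Bcl11b, a T lineage commitment factor, was higher by 0.66 ± 0.07.

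Of 13 CD4 lineage genes, 7 were higher and 2 lower (median log2 difference 0.44). Cd28 was higher by 1.19, Tox, an early regulator of the CD4 lineage, by 0.73 ± 0.07 and Tcf7 by 0.61 ± 0.07, and Tox and Tcf7 were higher in 11 of 11 mice. Zbtb7b ran from 0 to 21.3 CPM against 0 to 6.02 CPM and was higher in 8 of 11 mice, but its call (log2 1.66 ± 0.53, edgeR adjusted p = 0.0199) was lost without MHCII-/- replicate 1 and without WT sorted replicate 1 or 2. Preselection DP genes were higher in 8 of 11 tested and lower in none (median 0.57). Dntt, which adds bases to rearranging TCR genes, had a mean of 90.5 CPM against 50.2.

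Maturation genes went the other way, with 17 of 25 lower and 4 higher (median -0.71). Ms4a4b, a tetraspan protein of mature T cells, ran from 160 to 421 CPM (median 292) against 891 to 1416 (median 1262) with no overlap, a log2 difference of -2.23 ± 0.09 (edgeR adjusted p = 2.22e-21). H2-K1, the class I heavy chain, differed by -1.21 ± 0.08. Ssbp2, Tespa1, Gimap6 and Gimap7 were the 4 that rose.

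Other lists moved in both directions. Of 18 TCR response genes 4 were higher, among them Itm2a (1.48 ± 0.09) and Egr1 (0.66), and 4 lower. Of 13 TCR sensitivity genes 3 were higher and 2 lower, and of 9 survival genes 3 were higher, with Bcl2l1 at 0.80, and 1 lower. Of 13 chemokine receptor and migration genes, 5 were higher and 6 lower. Ccr9, which draws thymocytes to the cortex, had a mean of 1166 CPM against 492.6 (log2 1.18 ± 0.09), whereas S1pr4 differed by -1.84 and Itgb7 by -1.74 ± 0.13. Of 16 IL-7 receptor and STAT5 genes, 2 were higher and 4 lower. Socs1, an inhibitor of cytokine signalling, was higher by 0.83 ± 0.11, and Il7r had means of 99.1 and 104 CPM, higher in 5 mice and lower in 6, with a call (-0.32 ± 0.10, edgeR adjusted p = 0.0149) lost in 7 alternatives. Of 4 E protein and Id genes, Tcf3 rose and Id3 fell.

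**Figure D3:**
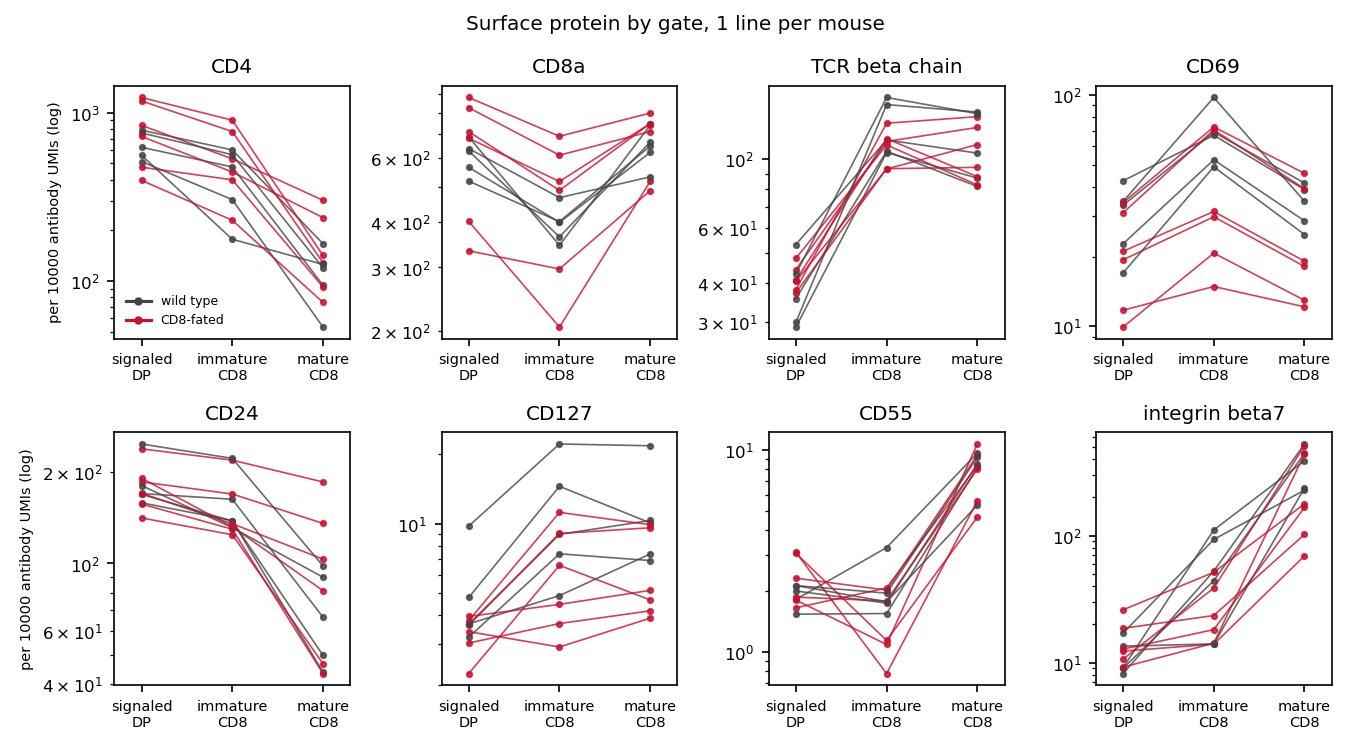
Mean antibody UMIs per 10000 of 8 proteins in signaled DP, immature CD8-committed and mature CD8 cells, 1 line for each of the 11 WT and CD8-fated mice. CD69 is highest in the middle position in all 11 mice, while CD4 falls from left to right and the TCR β chain rises at the first step.

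The same cells were set against signaled DP cells in the same 11 mice. In that gate 62.9% of cells had at least 3 UMIs of the 6 preselection DP markers, so it was not confined to cells past the preselection state. Since both comparisons hold the same immature cells, their values are not independent. Immature CD8-committed cells carried more TCR β chain, ICOS, integrin β7, CD69 and CD127 and less CD4, CD8a, CD8b and CD102. In all, 38 of 111 antibodies passed the test (34.2%).

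The TCR β chain ran from 93.2 to 158 per 10000 (median 114) in the immature cells and from 28.8 to 53.2 (median 40.5) in signaled DP cells, with no overlap. It was higher by 1.56 ± 0.12 on the log2 scale (edgeR adjusted p = 3.31e-07). ICOS, a costimulatory receptor, was higher in 11 of 11 mice by 1.28 ± 0.10 and CD69 by 0.98 ± 0.11 (median 52.4 against 22.7). CD69 was thus higher in the immature cells than in the signaled DP and the mature CD8 gate. The signaled DP gate was itself low in CD69, with a median below the 28.6 of mature CD8 cells. CD127 had a mean of 8.71 against 4.11 and was higher in 10 of 11 mice by 0.95 ± 0.18 (edgeR adjusted p = 0.00127).

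The signaled DP gate asked for a Cd4 UMI and the rule for none, so CD4 protein was conditioned on its own RNA in this comparison. CD4 had a mean of 491 against 734 and was lower in 11 of 11 mice by a log2 difference of -0.65 ± 0.12 (edgeR adjusted p = 0.00127). CD8a, at 435 against 624, was lower in 11 of 11 mice by -0.54 ± 0.09, and CD8b by -0.80 ± 0.09. CD8a and CD8b were thus lower than in signaled DP and in mature CD8 cells. CD8a-low cells made up 29.6% of the immature cells in WT and 18.6% in CD8-fated mice. They made up 9.19% and 6.87% of signaled DP cells and 8.24% and 5.77% of mature CD8 cells. Their part in the difference was not tested. CD24 differed by -0.25 ± 0.08.

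In RNA, 1805 of 6929 genes passed (26.0%), 940 higher (13.6%) and 865 lower (12.5%). The largest falls were Rag2, Gpr162, Slc7a11, Endou, Dgkeos, Nebl, P2rx1 and Tctex1d1, with log2 differences from -4.84 to -4.17. The largest rises were Cd74, Cd7, Itgae, Ccnd2, Lfng, Tesc, Ctsw and Smad7, from 2.69 to 5.29. Cd74 again rested in part on few cells, since without the cells rich in myeloid UMIs it was still called but smaller, at 2.20. The signaled DP gate asked for a UMI of Egr1, Cd69 or Itm2a and for 0 of Runx3 and Ccr7, and the rule asked for 0 of Rag1, which that gate did not limit. RNA that moves with these genes, TCR response, preselection DP and maturation genes among it, thus differs in part by construction of the gates, and the counts below describe the gates. Signaled DP cells were shallower, with a median of 3304 RNA UMIs over all mice, against 4681 in the 808 cells that met the rule. The part of depth in the result was not tested.

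Of 12 preselection DP genes, 11 were lower and none higher (median -1.79, against -0.01 over all genes). Dntt had a mean of 90.5 CPM against 594 and Arpp21 of 38.8 against 482, both lower in 11 of 11 mice. Arpp21 ran from 7.04 to 95.5 CPM in the immature and from 181 to 1416 CPM in the signaled DP cells, with no overlap.

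Of 10 CD8 lineage genes, 4 were higher and 2 lower (median 0.92). Cd7, an early T and NK cell surface protein, ran from 14.4 to 109 CPM (median 60.0) against 0 to 9.44 (median 3.00) with no overlap, a log2 difference of 4.32 ± 0.29 (edgeR adjusted p = 7.75e-15). Ctsw ran from 65.8 to 218 CPM against 10.4 to 53.9, also without overlap, and was higher by 2.73 ± 0.16. Itgae, Ctsw and Cd7 were thus above signaled DP cells and below mature CD8 cells. Runx1, at 86.0 CPM against 104, differed by -0.10 ± 0.12 (edgeR adjusted p = 0.601), and the 2 genes of the list that fell were Cd8a (-0.30 ± 0.08) and Gzma.

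Of 10 CD4 lineage genes, 8 were lower and 1, Icos, higher (median -0.75). Bcl6 differed by -2.59 ± 0.24, and Gata3, which is needed for the CD4 fate, had a mean of 83.9 CPM against 219 and differed by -1.19 ± 0.14. Of 14 IL-7 receptor and STAT5 genes, 4 were higher and 6 lower. Il7r ran from 7.21 to 191 CPM (median 98.3) against 2.43 to 114 (median 57.3), higher in 10 of 11 mice by 1.08 ± 0.17 (edgeR adjusted p = 3.98e-06). Bcl2 was higher by 1.00 ± 0.11 and Pim2 by 1.71, and Socs1 was lower by a log2 difference of -0.34 ± 0.13.

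Maturation genes were higher in 18 of 25 and lower in 5 (median 0.86), and H2-K1 ran from 204 to 959 CPM (median 709) against 26.0 to 197 (median 99.7) with no overlap, a log2 difference of 2.58 ± 0.14. Of 14 TCR response genes 2 were higher and 5 lower, with Cd5 at -1.31 ± 0.10, Nr4a1 at -0.73 ± 0.22 and Egr2 at -0.69 ± 0.22. Of 13 TCR sensitivity genes 6 were higher, among them Tmie (1.64 ± 0.30) and the potassium channel gene Kcna2 (1.55 ± 0.31), and 4 lower.

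Of 15 Cd4 silencing and chromatin genes none was higher and 8 were lower, with Satb1 at 2205 CPM against 3109 (-0.37 ± 0.07) and Bcl11b at -0.64 ± 0.08. Of 11 chemokine receptor and migration genes 7 were lower, with Cxcr4, a cortical receptor, at -1.73 ± 0.20, and 1, Itgb7, was higher. Of 8 survival genes 1 was higher and 2 lower, and of 4 E protein and Id genes Tcf12 and Id3 were lower.

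**Figure D4:**
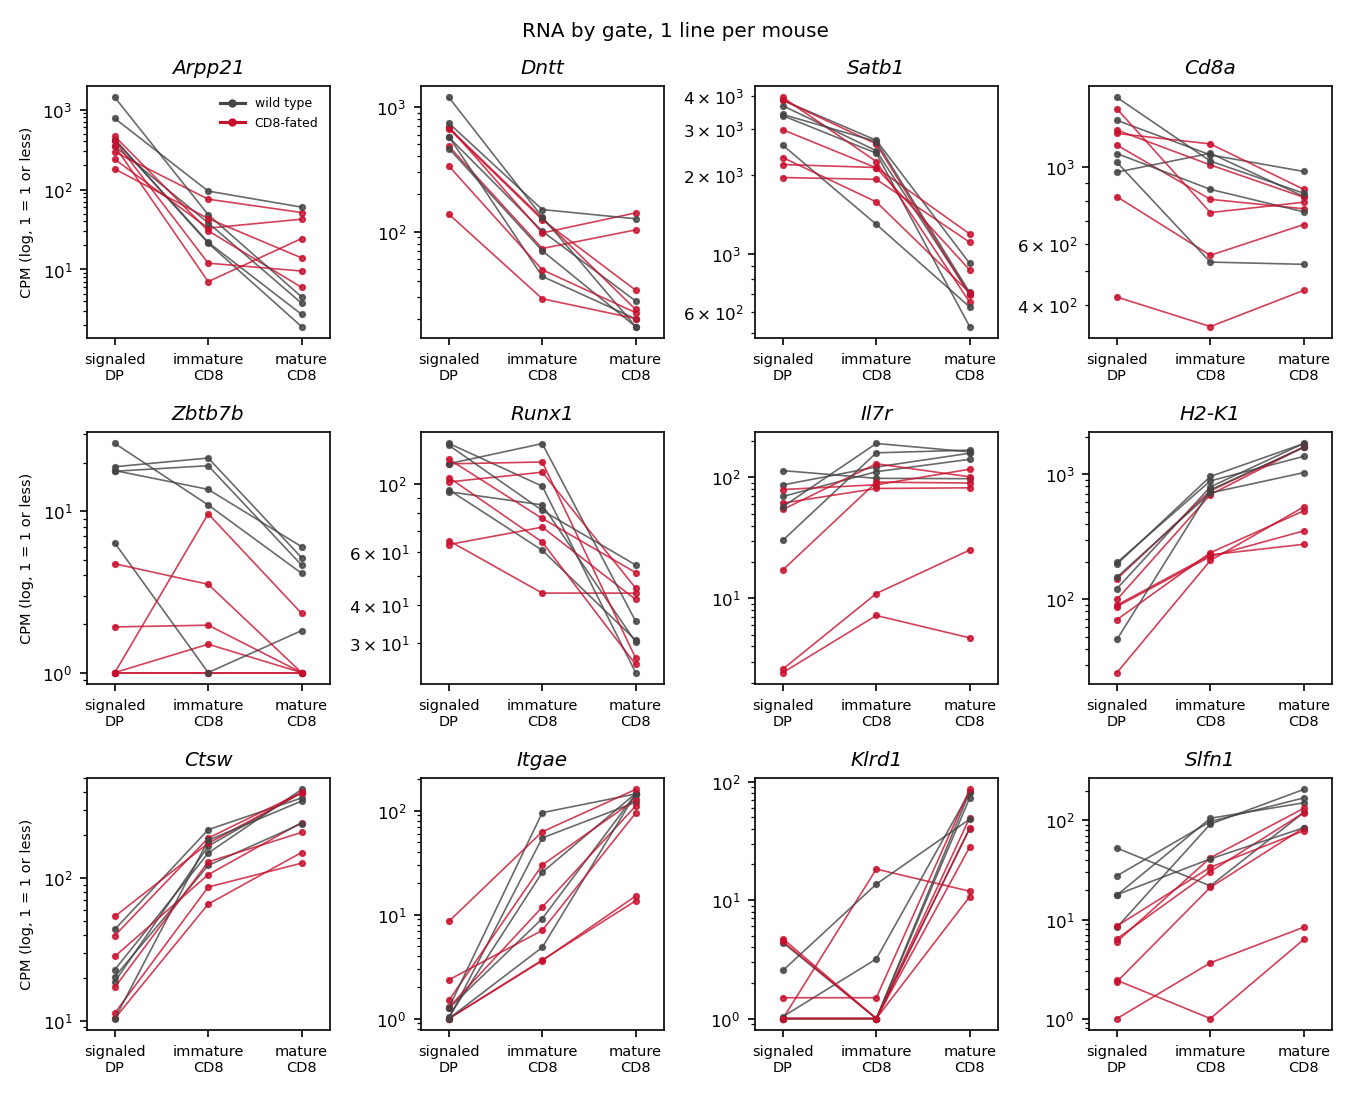
RNA level (CPM of UMIs summed per mouse, log axis, values of 1 or less drawn at 1) of 12 genes in signaled DP, immature CD8-committed and mature CD8 cells, 1 line for each of the 11 WT and CD8-fated mice. The means of Arpp21, Dntt and Satb1 fall from left to right, those of Ctsw, Itgae and H2-K1 rise, and that of Runx1 falls at the second step (86.0 to 37.2 CPM).

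Both lineages form in a WT thymus, so the cells were also set against their CD4 counterparts in the 5 WT mice. Immature CD4 cells had at least 1 UMI of Zbtb7b and of Cd4 and at least 1 of Ccr7 or Id2, with 0 of Cd8b1, S1pr1, Klf2, Nkg7, Zbtb16, Rag1, Mki67 and Foxp3. The gates thus rest on opposite lineage genes, so CD4 and CD8 protein and the RNA of CD4 and CD8 lineage genes differ in part by construction, and their values describe the gates. Over all mice the median depth was 5229 RNA UMIs in immature CD4 cells and 4681 in the 808 cells that met the rule. CD8-committed cells had less CD5, CD4, CD127 and CD69 protein, less RNA of TCR response genes and less Il7r. Their Cd8a, Itgae and H2-K1 RNA were higher. Of 111 antibodies 10 (9.01%) and of 5263 genes 351 (6.67%) passed, 197 genes higher (3.74%) and 154 lower (2.93%).

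CD5, a receptor whose level follows TCR signal strength, ran from 781 to 1586 per 10000 (median 1256) in the CD8-committed and from 1919 to 3061 (median 2351) in the CD4 cells. The ranges did not overlap, and the log2 difference was -1.18 ± 0.08 (edgeR adjusted p = 1.88e-05). CD69 differed by -0.85 ± 0.15 and CD127 by -0.88 ± 0.15 (11.6 against 18.3, edgeR adjusted p = 0.0118), each lower in 5 of 5 mice. CD8a ran from 345 to 467 against 25.1 to 57.9 with no overlap, and CD4 from 177 to 600 against 524 to 1013. Integrin β7 (2.00 ± 0.49), CD304 (0.69 ± 0.14) and H-2Kb bound to SIINFEKL (0.59 ± 0.15) were called higher, but each call was lost in at least 4 alternatives. The last 2 antibodies were low in both gates. CD304 ran from 2.89 to 11.1 against 1.87 to 7.52, and H-2Kb bound to SIINFEKL from 4.66 to 7.29 against 1.80 to 6.60. Whether these counts exceed antibody background was not tested. CD103 differed by 0.72 ± 0.26, which missed the test (edgeR adjusted p = 0.176).

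Il7r ran from 98.3 to 191 CPM (median 122) against 302 to 484 (median 419) with no overlap, a log2 difference of -1.68 ± 0.16 (edgeR adjusted p = 4.98e-15). Bcl2, which IL-7 signals maintain, had a mean of 398 CPM against 805 and was lower by a log2 difference of -0.99 ± 0.12 in 5 of 5 mice. These were the 2 called genes of 10 in the IL-7 receptor and STAT5 list, and none was higher. Of 16 TCR response genes 8 were lower and none higher (median -0.67, against 0.01 over all genes). Itm2a had a mean of 668 CPM against 3407 (-2.43 ± 0.14), Cd5 of 156 against 428 (-1.33 ± 0.15) and Egr2 of 12.2 against 39.6 (-1.83 ± 0.38).

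Of 9 CD4 lineage genes 5 were lower and 1, Myb, higher. Cd40lg, the ligand by which helper T cells act on B cells, ran from 0 to 40.9 CPM (median 15.2) against 91.2 to 180 (median 138) with no overlap, a log2 difference of -3.49 ± 0.32 (edgeR adjusted p = 4.98e-15). Gata3 (-1.92 ± 0.21) and Tox (-0.94 ± 0.12) were lower in 5 of 5 mice without overlap. By the naming rule Myo6, Igfbp4, Chl1, Gpr83, Sytl2, Prdx4 and St3gal2 completed the largest falls.

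Of 7 CD8 lineage genes 4 were higher and none lower (median 1.91). Cd8a ran from 532 to 1096 CPM (median 1041) against 17.7 to 130 (median 31.1), higher by 5.12 ± 0.17, and Ctsw was higher by 1.91 ± 0.21 and Cd7 by 1.93 ± 0.31, all 3 without overlap. Itgae (4.26 ± 0.87), Tdrp, Plac8, Rora, Cxxc5, Ctsh and Kcna2 were the next largest rises, and Tdrp ran from 81.8 to 185 CPM against 0 to 19.5. The call of Ctsh was lost under DESeq2 (adjusted p = 0.11).

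Maturation genes were higher in 14 of 24 and lower in 1, Il7r (median 0.78), with H2-K1 at 819 CPM against 359 in 5 of 5 mice. Preselection DP genes were higher in 6 of 9 and lower in 1 (median 0.96), among them Arpp21 (2.25 ± 0.51) and Dntt (1.5 ± 0.28). Of 12 TCR sensitivity genes 6 were higher and 2 lower. Of 15 Cd4 silencing and chromatin genes 3 were higher and 2 lower, and Runx1 (-0.24 ± 0.21, edgeR adjusted p = 0.704) and Satb1 (-0.29 ± 0.11, edgeR adjusted p = 0.117) missed the test. The survival, migration and E protein lists each had 1 gene called in each direction.

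**Figure D5:**
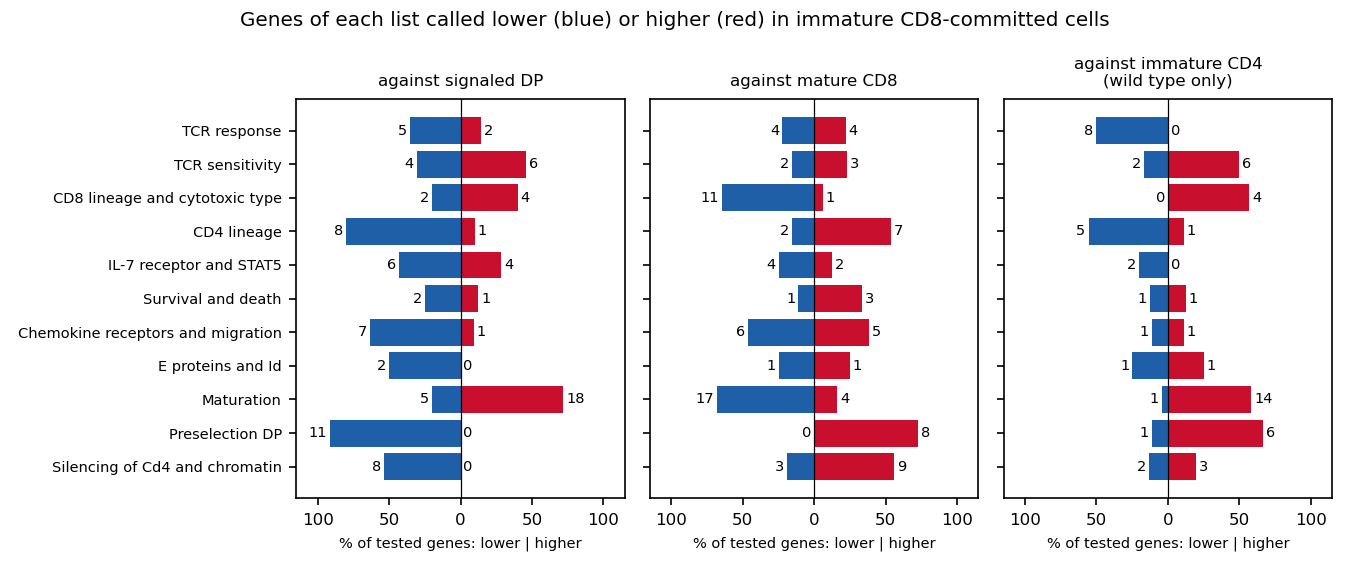
Percent of tested genes of each list that were lower (left) or higher (right) in immature CD8-committed cells than in signaled DP, mature CD8 and immature CD4 cells, by edgeR at an adjusted p under 0.05. Maturation genes are mostly higher than in signaled DP cells (18 of 25) and mostly lower than in mature CD8 cells (17 of 25).

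The cells varied among themselves, and they were split by CD4 protein, which the rule did not use, within each mouse. Cells above the median CD4 level of their mouse (361 cells) were set against those at or below it (367 cells) in 11 mice, a split made after the data had been seen. CD4-high cells had more Runx1, Satb1, Il7r and CD5 protein, and CD4-low cells had more Itgae, H2-K1, Ms4a4b and CD8a protein. Of 3862 genes 276 (7.15%) passed, 61 higher (1.58%) and 215 lower (5.57%) in the CD4-high cells, and of 110 other antibodies 9 (8.18%). The CD4-low cells had a median of 5370 RNA UMIs and the CD4-high cells of 4306, and the part of this depth in the result was not tested. CD8a-low cells made up 136 of the 361 CD4-high cells (37.7%) and 23 of the 367 CD4-low cells (6.27%). In WT mice the CD8a-low cells had 141 CPM of Runx1 against 67.7 in the rest, 245 against 82.9 of Il7r, 600.3 against 933 of H2-K1 and 3.45 against 31.8 of Itgae, and their part in the result was not tested.

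Runx1 ran from 58.0 to 208 CPM (median 130) in CD4-high and from 0 to 108 CPM (median 46.1) in CD4-low cells, higher in 11 of 11 mice by 1.23 ± 0.19 (edgeR adjusted p = 1.76e-06). Satb1 ran from 2145 to 3463 CPM against 657 to 2129 with no overlap and was higher by 0.62 ± 0.06. Il7r had a mean of 133 CPM against 72.2 and was higher in 9 of 11 mice by 0.96 ± 0.18 (edgeR adjusted p = 0.000109). Tcf7 (0.44 ± 0.07), Ccr9 (0.50 ± 0.07) and Dntt (0.72 ± 0.17) were higher in 11 of 11 mice. Abtb2, Sh3bgrl, Snx15, Tmx3, Ctsl and Gimap9 were the other largest rises.

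Itgae had a mean of 7.42 CPM in CD4-high cells against 44.0 in CD4-low cells (-2.81 ± 0.53) and H2-K1 of 325 against 793 (-1.41 ± 0.12), each lower in 10 of 11 mice. Ms4a4b and Ccnd2, which encodes cyclin D2, differed by -1.41 ± 0.14 and -1.33 ± 0.11 in 11 of 11 mice. H2-Q7, Smad7, Tagln2 and Ctss were also among the largest falls, and Ctss, a lysosomal protease of antigen-presenting cells, differed by -1.04 without the cells rich in myeloid UMIs, against -1.43 ± 0.28 with them. Of 7 CD8 lineage genes 4 were lower and 1 higher, of 24 maturation genes 8 were lower and 4 higher, and of 9 IL-7 receptor and STAT5 genes 3 were higher and none lower.

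On the surface, CD8a ran from 112 to 672 per 10000 (median 261) in CD4-high cells and from 294 to 708 (median 616) in CD4-low cells, lower in 11 of 11 mice by -0.95 ± 0.16 (edgeR adjusted p = 0.00241). Integrin β7 differed by -1.63 ± 0.38 and CD103 by -0.66 ± 0.15. CD5 was higher by 0.58 ± 0.10, CD102 by 0.58 ± 0.10 and CD28 by 0.57 ± 0.14, each in 11 of 11 mice. CD69 differed by 0.01 ± 0.14 (edgeR adjusted p = 0.986).

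The 2 ways into the rule were compared in 7 mice, 303 cells with Ccr7 and without Id2 UMIs against 132 with Id2 and without Ccr7 UMIs. Of 2715 genes 18 (0.663%) passed by edgeR and 0 by DESeq2, and 172 had an unadjusted p under 0.05. By edgeR, Ccr7 cells had more Utrn, Arl5c, Thy1, Cd8a and Ltb, the last a cytokine gene of the lymphotoxin family (0.48 ± 0.10), and less Itm2a (-0.68 ± 0.12), Tox (-0.54 ± 0.12) and Satb1 (-0.30 ± 0.06). Cst3, a cystatin abundant in myeloid cells, differed by -1.54 ± 0.26, and by -0.01 without the cells rich in myeloid UMIs. Of 111 antibodies 0 (0.0%) passed by edgeR and 7 had an unadjusted p under 0.05. The TCR β chain was higher in 7 of 7 mice, by 0.43 ± 0.15 (edgeR adjusted p = 0.504).

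Whether the cells differ when the receptor is restricted to class I was asked by setting the 6 CD8-fated against the 5 WT mice, with the experiment as a covariate. Of 5285 genes 0 (0.0%) passed by edgeR and 1 by DESeq2, and 218 had an unadjusted p under 0.05. Of 111 antibodies 0 (0.0%) passed by edgeR, with 23 at an unadjusted p under 0.05.

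Each genotype was then set against the WT mice in the same fit, with 2 mice each against 5 WT mice, and the genotypes were not tested against each other. F5 mice had 20 genes (0.378%) and 21 antibodies (18.9%) past the test. All WT mice in the experiments of the F5 mice had been sorted for CD5+TCRB+ cells and the F5 mice had not, so genotype and sort cannot be told apart here. Il7r was 7.21 and 10.96 CPM in F5 mice and ran from 98.3 to 191 in WT mice, a log2 difference of -3.66 ± 0.49 (edgeR adjusted p = 0.00175) with no overlap, a call lost without either F5 mouse or WT sorted replicate 1. CD127 protein differed by -2.32 ± 0.44 and CD69 protein by -2.20 ± 0.36 (14.9 and 20.7 per 10000 against 48.9 to 97.4), also without overlap, and the CD127 call was lost without F5 replicate 1 or WT sorted replicate 1. In F5 mice CD69 was below all WT mice in signaled DP cells too (9.94 and 11.7 against 17.0 to 42.5). The same held in mature CD8 cells for CD69 (13.0 and 12.2 against 24.9 to 41.6) and CD127 (4.19 and 3.89 against 6.91 to 21.7). In signaled DP cells the CD127 ranges overlapped. Low CD69 and CD127 were thus not particular to the rule. Among the called genes that were lower was Ifi27l2a, an interferon-induced gene, at a mean of 1.83 CPM against 399 (-7.55 ± 0.88). Rtp4 (-4.38 ± 0.82), Ifit1 (-4.0 ± 0.79) and Irf9 (-2.59 ± 0.48) were also called, but each call was lost without either F5 mouse. TCR Vβ5.1/5.2, which the F5 receptor does not use, fell to 2.65 and 2.82 per 10000, against 20.2 to 33.1 in WT mice.

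Amd1, a gene of polyamine synthesis, stood at 2217 and 2762 CPM in the cells of F5 mice and at 24.2 to 54.6 CPM in WT mice, higher by 6.29 ± 0.48 (edgeR adjusted p = 6.67e-06). At least 3 UMIs of Amd1 were in 97.5% and 97.0% of all cells of the F5 mice, so Amd1 was not particular to the rule. Its neighbour Cdk19 was higher by 2.87 ± 0.41, a call lost without either F5 mouse or WT sorted replicate 1, and Cdk19os, an antisense RNA, had 156 UMIs in 113 cells of F5 mice and 0 in 213 cells of WT mice, at least 95.6-fold higher with a floor of 3 counts over the group. On GRCm38.p6, by the RefSeq annotation, Amd1 lies at chr10:40287458-40302188 and Cdk19 at chr10:40349287-40483818, 47.1 kb apart. Tyrobp and Ly6d were also called higher, although their F5 and WT ranges overlapped.

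MHCII-/- mice had 1 gene (0.0189%) and 1 antibody (0.901%) past the test. The antibody was the check of the deleted locus, since I-A/I-E stood at 1.64 and 1.91 per 10000 against 57.3 to 633 in WT mice (-5.94 ± 1.05, edgeR adjusted p = 0.0267), with no overlap, though the call was lost without either MHCII-/- mouse, either OT-I mouse or WT sorted replicate 2. The gene was Rnaset2b, at 3.93 and 4.5 CPM against 13.6 to 137 (-4.41 ± 0.48), a call lost without MHCII-/- replicate 2. It has a near-identical copy, Rnaset2a, so the reads of these genes may be split between them. OT-I mice had 2 genes (0.0378%), Tyrobp and Ly6d, both overlapping with WT mice, and 3 antibodies (2.7%), of which 2 are given here. TCR Vβ5.1/5.2, the β chain segment of the OT-I receptor, was 145 and 149 per 10000 against 20.2 to 33.1 (3.08 ± 0.42, and 2.24 on antibody totals without TMM). Its ranges did not overlap, but its call was lost without WT unsorted replicate 4, where no antibody passed. CD5 was 1668 and 1491 per 10000 against 781 and 876 in the WT mice of the same experiment, with overlap over all WT mice, and its size depended on the scaling, at 1.79 ± 0.33 with TMM and 0.93 without. The median log2 difference over all antibodies moved from -0.18 to -0.85 between these scalings, and the CD5 call was lost without 4 mice, each left out alone (F5 replicate 1, WT sorted replicate 1, WT unsorted replicate 4 or 5). CD5 of OT-I mice was above that of WT unsorted mice in other gates too. It was 1993 and 1936 against 635 and 875 in signaled DP cells, and 1299 and 1308 against 963 and 1154 in mature CD8 cells.

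The few cells that met the rule in CD4-fated mice were compared with those of CD8-fated mice in the 4 CD4-fated mice with at least 10 such cells. Of 5030 genes 2 (0.0398%) passed by edgeR, Zbtb7b and Tnfrsf4, 24 with the replicate number as a block, and 8 by DESeq2. Of 111 antibodies 0 (0.0%) passed by edgeR, with 11 at an unadjusted p under 0.05. The antibody library of AND replicate 2 stood apart in this comparison, with a median of 969 antibody UMIs per cell. Zbtb7b ran from 0 to 9.62 CPM in CD8-fated mice (median 1.73) and from 43.9 to 129 CPM in CD4-fated mice (median 53.4), with no overlap. The log2 difference was -4.51 ± 0.78 (edgeR adjusted p = 0.0418), a call lost in 11 alternatives, among them each fit without F5 replicate 1 or 2, MHCII-/- replicate 1 or 2, MHCI-/- replicate 2, AND replicate 2 or OT-I replicate 1. Cd40lg ran from 0 to 9.62 CPM against 11.6 to 146 CPM, also without overlap (-3.39 ± 0.67, edgeR adjusted p = 0.144), and missed the test. In WT mice Zbtb7b stood at 21.3, 19.1, 10.9, 0 and 13.6 CPM, so that 4 of 5 lay between the other groups and 1 within the CD8-fated range.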

How the data were processed

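Thymocytes of 17 mice (19 lanes) were profiled with 10x Chromium 3' v3 CITE-seq. The authors mapped RNA with Cell Ranger 3.1.0 against the mm10 reference and deposited filtered UMI counts of 28692 genes, together with antibody UMI counts. Lanes held 2550 to 9408 barcodes and 9893330 to 43304000 RNA UMIs. Counts were used as deposited, and depth limits what a cell's 0 can show.

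Here, lanes of 1 mouse were joined and UMIs of all cells of a mouse and gate were summed, with at least 10 cells in each. Levels are CPM of summed UMIs or antibody UMIs per 10000. Sums were tested with edgeR 4.0.16 (TMM, glmQLFit, glmQLFTest) in R 4.3.3, after filterByExpr for RNA and without a filter for 111 antibodies, with the mouse as a block within mice, the experiment against WT and the genotype pair (AND with F5, OT-II with OT-I, MHCI-/- with MHCII-/-) between lineages. DESeq2 1.42.0 was an alternative. The share was compared with scipy 1.17.1. Doublets were called by simulated doublets among nearest neighbours (scikit-learn 1.9.0) at 0.8% per 1000 cells and left out as an alternative only. Scripts were tested on simulated data.

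The cell rule and the gene lists were chosen with earlier results of these data known. Genes named were the 8 largest called each way with at least 20 CPM in 1 arm and the same direction in 80% of mice, the 6 largest antibodies each way, 16 named antibodies and the listed genes. Same-numbered mice of paired genotypes had correlations of deviations of -0.816, -0.578, 0.255 and -0.105 over 5030 genes. AND replicate 1 and MHCI-/- replicate 1 were not in that fit, and deviations among so few mice depend on each other. These values therefore cannot decide whether the numbers pair the mice. Replicate numbers were not taken to pair them, and the count with the numbers as a block is given beside the main one. For AND and F5 the number is also the experiment, but AND replicate 1 entered no gene fit. Sequences and cell type annotations were not used, and some genes and proteins of the lists are not reported here.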

Additional observations from a re-analysis of the deposited data

Results flagged for a closer look

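In 54 checks for a mouse far from the others of its group, of which chance marks about 1 in 20, 7 were marked. In cells that met the rule, PD-1 protein stood at 42.5 per 10000 in WT sorted replicate 1 and at 10.2 in OT-I replicate 1, and Ly-6C at 173 in WT unsorted replicate 4. PD-1 of these 2 mice was not particular to the rule. In WT sorted replicate 1 it was the highest of WT mice in mature CD8 (39.9) and signaled DP cells (31.6) too. In OT-I replicate 1 it was the lowest of CD8-fated mice there (14.4 and 16.6). AND replicate 2 stood apart among CD4-fated mice with CD127 at 34.5 and CD183 at 7.67 per 10000. Other low antibodies were high there too, such as CD335 at 125 (8.39 to 17.3 in the other CD4-fated mice with enough cells), and its cells had the fewest antibody UMIs, a median of 969. After thinning, the CD4-fated share stood out at 0.494% (2000 UMIs) in OT-II replicate 2 and at 0.439% (3000 UMIs) in MHCI-/- replicate 2.

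The within-mouse difference from mature CD8 cells was not the same in CD8-fated and WT mice for 4 of 8887 genes, by a test of the difference itself (edgeR interaction term, adjusted p under 0.05). The CD8-fated minus the WT value was -0.73 for Cd28 (0.93 in CD8-fated and 1.68 in WT mice), -3.84 for Tbc1d4, -4.90 for Ly6a (-3.96 and 1.02) and -8.10 for Ccl22, the last a fitted value of a sparse gene and no bound.

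Against signaled DP cells, 7 of 6929 genes and 1 antibody differed between CD8-fated and WT mice by the same test, all with the lower log2 difference in CD8-fated mice. Among them were B2m at -0.87 (0.94 against 1.82), H2-T22 at -1.48 (-0.37 against 1.12) and Psme1 at -0.68 (0.47 against 1.16). Plac8 was at -4.41 (0.07 against 4.24), AW112010 at -2.27, Tagln2 at -1.34, Ly6c2 at -11.09 and CD86 protein at -1.11. Ly6c2 had 0 CPM in the cells of all 6 CD8-fated mice, so its fitted value depends on the prior count and is no bound. Neither this test nor the one against mature CD8 cells held a term for how the gates differ by sort or experiment. The F5, OT-I and WT unsorted mice had not been sorted and the others had. The part of the sort in these differences was not tested.

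Antibody features outside the shared panel of 111 held 70.6 UMIs per cell that met the rule in experiment ZRS06 and 0.433 in ZRS08. They entered no comparison.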

How the results depend on the processing

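Single genes and antibodies chosen by the naming rule kept their direction and side of the threshold in 17540 checks, passed the threshold only under the alternative in 188, missed it in 544 and reversed in 2. Ccl5 stood at -1.31 against mature CD8 cells without the cells rich in myeloid UMIs (0.28 with them, not called), and CD14 at 0.00917 between CD4-high and CD4-low cells under the study's protein filters.

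The share difference lay between 1.20 (2000 UMIs) and 2.53 percentage points (denominator without cycling and Rag1 cells) in all alternatives and between 1.57 and 2.05 without 1 mouse. Paired by replicate number in a block it is 1.85 by arithmetic, and the exact permutation p of 0.0312 is the smallest that 6 pairs allow. Against CD4-fated mice 24 genes were called with the replicate block.

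Counts of called genes or antibodies moved by over 1.5 times as follows; the cause was not tested. The splits by lineage, by myeloid-rich cells, by shared barcodes and all alternatives for single genotypes and CD4-high cells were chosen after seeing the data. Against mature CD8 cells, WT mice alone gave 720 genes and 12 antibodies, and 54 antibodies were called without myeloid-rich cells. Against signaled DP cells, CD8-fated mice alone gave 1135 genes and 16 antibodies and WT mice alone 990 genes. Against immature CD4 cells, DESeq2 called 141 genes. Against WT mice, DESeq2 and the protein filters gave 1 gene, no filter on low counts 49, and antibody totals without TMM 10 antibodies. Between lineages, DESeq2 gave 8 genes, no filter 84, the protein filters 1, the stricter rule (2 UMIs of Cd8b1) 0, leaving out doublets 0, barcodes found in another lane 0, and myeloid-rich cells 8 genes and 1 antibody. For Ccr7 against Id2 cells, DESeq2 gave 0 genes, no filter 58, the protein filters 10, the stricter rule 1, without shared barcodes 11 and without myeloid-rich cells 10. For CD4-high against CD4-low cells, DESeq2 gave 169 genes, the stricter rule 159, and the protein filters 15 antibodies. Against WT mice, no filter on low counts gave 80 genes for F5, 7 for MHCII-/- and 40 for OT-I mice, DESeq2 gave 2 for MHCII-/- mice, and antibody totals without TMM gave 6 antibodies for OT-I mice.

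Without 1 mouse, counts of genes and antibodies ran from 1366 to 2076 and 23 to 37 (mature CD8), 1463 to 1870 and 34 to 42 (signaled DP), 176 to 498 and 4 to 12 (immature CD4, 176 and 4 without WT sorted replicate 2 and 227 genes without WT sorted replicate 1), 184 to 295 and 7 to 14 (CD4-high, 14 without OT-I replicate 2), 7 to 22 and 0 to 0 (Ccr7 or Id2, 7 without F5 replicate 1 and 9 without WT unsorted replicate 4), 0 to 9 and 0 to 1 (lineages, 9 without OT-II replicate 1, 4 without OT-I replicate 2, 1 without MHCI-/- replicate 2, and 0 without AND replicate 2, OT-I replicate 1 or any 1 of the F5 and MHCII-/- mice) and 0 to 2 and 0 to 1 (WT). For single genotypes against WT, where leaving out 1 of 2 mice leaves a lone mouse assumed to vary like the others, they ran from 5 to 50 and 8 to 23 (F5, 5 genes without F5 replicate 1 or WT sorted replicate 1, 6 without F5 replicate 2, 9 without WT sorted replicate 2 and 41 to 50 without any 1 mouse of ZRS08 in this fit; 8 antibodies without WT sorted replicate 1 and 11 without F5 replicate 1), 0 to 2 and 0 to 2 (MHCII-/-), and 2 to 25 and 0 to 12 (OT-I, 25 genes and 0 antibodies without WT unsorted replicate 4, 12 genes without WT unsorted replicate 5, 12 antibodies without OT-I replicate 2 and 1 without F5 replicate 1 or WT sorted replicate 1). With 5 to 170 cells per mouse, low genes are limited by counts.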
